A study of Mus musculus with 12 samples.

Results

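The 9 genes described here encode transcription factors that establish and keep the identity of hepatocytes: Hnf4a, Foxa1, Foxa2, Foxa3, Cebpa, Onecut1, Onecut2, Nr5a2 and Prox1. They were chosen by name, as the loci whose gene symbol in the authors' deposited table is 1 of these 9, and each stands at exactly 1 locus of 1 name, so that the set makes up 9 of 27109 loci. The table comes from poly(A) RNA sequencing of C57BL/6 mouse liver, and the study asked what loss of ATF4, a transcription factor made during endoplasmic reticulum stress, does in resting and in stressed liver. Wild-type mice and mice with a liver-specific Atf4 knockout, titled LsATF4-KO with the genotype LsATF4-/-, were injected intraperitoneally with tunicamycin at 1 mg/kg or with 0.3% DMSO. Tunicamycin stops the N-linked glycosylation of new proteins and thereby sets off this stress. Livers were collected after 6 h. There are 4 groups of 3 libraries: the resting (DMSO) wild type, the stressed (tunicamycin) wild type, the resting knockout and the stressed knockout, and where 4 values are given without further words they stand in this order. The sources used here do not give the age or sex of the mice, the promoter that drives the deletion or whether each library is 1 animal.

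Hepatocyte identity rests on a small network of factors that bind their own and each other's regulatory regions. HNF4A is a nuclear receptor that sits at many liver enhancers, the FOXA proteins are pioneer factors that open chromatin, C/EBP alpha drives metabolic genes of the resting hepatocyte, and the ONECUT factors, also called HNF6 and OC2, act in liver development and in bile acid, glucose and drug metabolism. The nuclear receptor NR5A2 (LRH-1) regulates bile acid and cholesterol genes, and the homeobox protein PROX1 restrains HNF4A and NR5A2 as a corepressor and is needed for hepatoblast migration.

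The promoters of 4 of these genes are shown because they stand for the responses described below: Foxa2, Cebpa and Onecut1 fell with tunicamycin in both genotypes, and Nr5a2 rose in wild type. The sequences are the 250 bases before a RefSeq transcription start in GRCm38.p6, which is not the build of the expression table, read 5′ to 3′ on the strand of the gene, and capitals mark matches to the motifs searched.
Foxa2 (start 1, chr2:148046970-148047219, minus strand): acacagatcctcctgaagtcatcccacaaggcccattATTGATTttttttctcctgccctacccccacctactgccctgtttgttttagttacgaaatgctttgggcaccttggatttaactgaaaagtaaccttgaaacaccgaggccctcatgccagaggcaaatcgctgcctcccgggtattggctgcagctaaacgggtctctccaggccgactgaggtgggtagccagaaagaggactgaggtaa
Cebpa (chr7:35119043-35119292, plus strand): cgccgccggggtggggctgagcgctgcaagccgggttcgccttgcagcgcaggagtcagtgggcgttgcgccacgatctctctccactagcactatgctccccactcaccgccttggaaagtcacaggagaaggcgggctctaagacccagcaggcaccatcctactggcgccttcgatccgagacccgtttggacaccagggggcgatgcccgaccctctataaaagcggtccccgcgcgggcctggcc
Onecut1 (chr9:74861671-74861920, plus strand): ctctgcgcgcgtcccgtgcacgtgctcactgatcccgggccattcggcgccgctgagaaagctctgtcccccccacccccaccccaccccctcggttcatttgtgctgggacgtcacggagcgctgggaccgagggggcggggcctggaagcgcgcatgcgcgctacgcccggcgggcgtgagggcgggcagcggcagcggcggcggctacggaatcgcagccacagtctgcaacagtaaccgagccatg
Nr5a2 (start 2, chr1:136953631-136953880, minus strand): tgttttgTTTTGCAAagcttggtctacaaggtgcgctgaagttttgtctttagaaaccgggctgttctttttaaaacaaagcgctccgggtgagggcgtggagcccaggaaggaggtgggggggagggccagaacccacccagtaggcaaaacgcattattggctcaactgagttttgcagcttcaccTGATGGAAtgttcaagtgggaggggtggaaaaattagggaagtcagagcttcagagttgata
The motifs, searched on both strands, were TGTTTAC for FOXA, TTGCNNAA for C/EBP, CAAAGTCCA for HNF4, ATTGATT for ONECUT, CAAGGTCA for NR5A2, TGATGNAA for the composite of ATF4 and C/EBP, and TGACGTGG for an unfolded protein response element. Of 32851 mouse promoters of the same length, 3.17% held the FOXA letters, 9.56% the C/EBP letters, 0.384% the HNF4 letters, 2.61% the ONECUT letters, 1.33% the NR5A2 letters, 3.45% the composite and 0.563% the stress element. In 13 windows of 8 genes (the sequence table used here holds none for Onecut2), 5 matches were found. The capitals in Foxa2 are an ONECUT match that begins at position -213 from the start, and those in Nr5a2 are a C/EBP match at -243 and the composite at -62. For these genes the window printed is the only one with a match. Starts 2 and 3 of Foxa2 and start 1 of Nr5a2 hold none of the motifs. An ONECUT match also lies at -60 from the first start of Hnf4a, and a FOXA match at -141 from that of Foxa1. The windows shown for Cebpa and Onecut1 hold none of the 7 motifs, which says only that these letters are not there.

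All levels below are FPKM (fragment counts per transcript length and per sequencing depth), 1 pooled value per group in the authors' deposited table, so no spread between libraries can be given. A difference was called when the deposited q-value, Cuffdiff's p-value adjusted over all comparisons, was under 0.05, and "rose" and "fell" refer to such calls. The 95% intervals were derived from the deposited test statistic. These p-values come from Cuffdiff's model of 3 libraries a group, and the sources used here do not give its settings. They are therefore not a plain measure of the spread between libraries, which may in part be technical. Lane 5 held the 3 resting knockout libraries and lane 4 all 9 remaining ones, and wherever the resting knockout enters a comparison its lane and its group cannot be told apart. The locus that merges Atf4 with Cacna1i had 46.9, 356, 22.8 and 114 FPKM in the authors' deposited table. It was lower in the knockout under tunicamycin (q = 0.000396), was not called under DMSO (q = 0.270), and rose with tunicamycin within the knockout too (q = 0.000396, all in the authors' deposited table). Since the locus holds 2 genes and the sources used here do not give the deleted part, it is a limited check of the knockout label. The knockout tunicamycin group carried markers of other tissues: 8 adrenal cortex markers summed to 1289 FPKM against 6.77 to 23.5 in the other groups, 5 adrenal medulla markers to 116 against 0.033 to 0.204, 8 skeletal muscle markers to 324 against 1.69 to 4.74, and 6 fat markers to 248 against 16.9 to 26.2. The adrenal receptor gene Nr5a1, a relative of Nr5a2, was at 16.7 FPKM there and at or under 0.020 elsewhere. Between stressed genotypes, 3 of 8 adrenal cortex, 2 of 5 adrenal medulla, 6 of 8 muscle and 2 of 5 fat markers tested were called higher. Calls were not confined to that group. In the resting knockout against resting wild type, 1 of 2 fat markers tested was higher and 1 of 4 adrenal cortex markers lower. With tunicamycin in wild type, 1 of 4 adrenal cortex and 1 of 5 muscle markers tested rose. Pooled values do not show which libraries carried these transcripts. Hepatocyte markers summed to 20903, 13077, 16583 and 10660 FPKM in the 4 groups, without Alb, which is listed at 0 in every group because its estimate failed. Fewer hepatocytes and less RNA per hepatocyte cannot be told apart in whole liver. The part of these tissue differences in the results below was not tested.

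**Figure D1:**
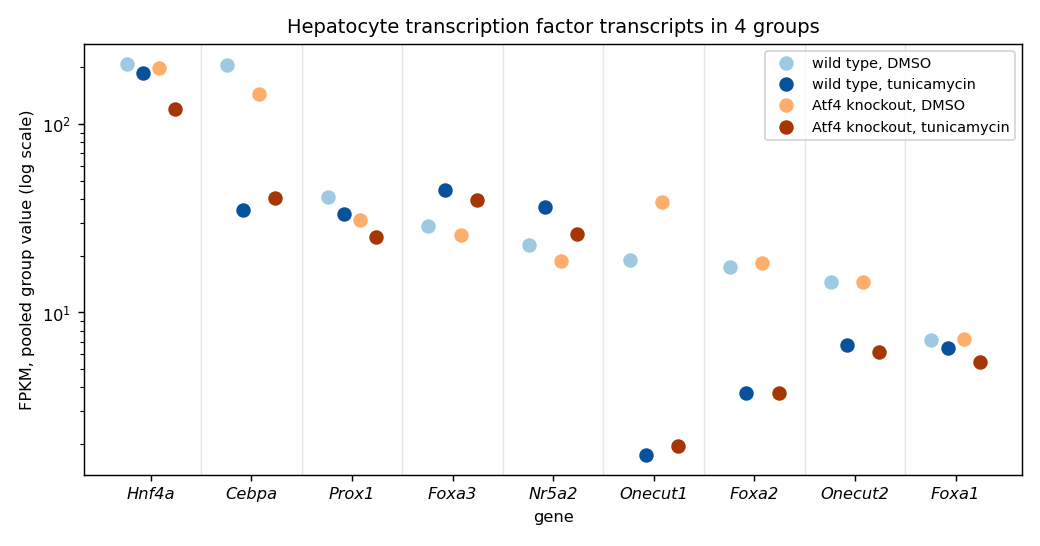
Pooled FPKM (log axis) of the 9 genes in the 4 groups, 1 point per group and gene, with genes ordered by their level in wild type with DMSO. Onecut1 spans from 1.75 to 38.4 FPKM, and Foxa1 from 5.45 to 7.25.

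In resting wild-type liver the genes fell into a wide range of levels, with Hnf4a (210 FPKM) and Cebpa (206 FPKM) at the top, Prox1 (40.9), Foxa3 (28.9), Nr5a2 (23.0), Onecut1 (18.97), Foxa2 (17.4) and Onecut2 (14.6) between, and Foxa1 (7.10) last. Levels of different genes were not tested against each other, so the order of close neighbours such as Hnf4a and Cebpa has no error. The 9 genes summed to 567, 354, 498 and 270 FPKM. Hnf4a ranked first in every group. Cebpa ranked second in each group but wild type with tunicamycin, where Foxa3 and Nr5a2 also stood above it.

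Most of these genes were called with tunicamycin in each genotype. Few were called between genotypes, as was the case for tested loci as a whole. In wild type, 2 of 9 rose and 4 fell with tunicamycin in the authors' deposited table, in which 37.1% of all tested loci were called, 18.1% higher and 19% lower. Knockout livers had 1 rise and 5 falls, against 33.0% of loci called, 18.1% higher and 14.8% lower. Between genotypes under DMSO, 1 was higher in the knockout and none lower, with 2.86% of loci called, 1.39% higher and 1.47% lower. Under tunicamycin none was higher in the knockout and 1 was lower, with 5.92% of loci called, 3.73% higher and 2.19% lower. The median log2 change of the 9 genes with tunicamycin was -0.30 in wild-type and -0.72 in knockout livers, beside -0.02 and 0.01 over all loci. For knockout against wild type the medians were -0.08 under DMSO and -0.17 under tunicamycin, beside -0.07 and -0.04 over all loci. The hepatocyte marker sum itself was lower with tunicamycin, with a log2 ratio of -0.68 in wild-type and -0.64 in knockout livers. Of 7 markers tested, 3 fell in each genotype and none rose, and Tat was higher without being called (log2 changes of 0.87 and 0.58). Apoa1, Ttr, Serpina1a, Cps1, Cyp2e1 and Tat are also on the lists of target genes below. A ratio to the sum therefore cannot separate hepatocyte content from the output of these factors. Relative to that sum, an alternative added after the data were seen, the log2 changes with tunicamycin of the 4 genes lower in both genotypes became -2.76 and -3.65 for Onecut1, -1.88 and -1.20 for Cebpa, -1.55 and -1.65 for Foxa2 and -0.44 and -0.59 for Onecut2, wild type first. Those of Foxa3 became 1.31 and 1.26, and those of Nr5a2 1.33 and 1.12. Both Foxa1 and Prox1, called in neither genotype, changed sign on this scale, as did Hnf4a in wild type. Both tunicamycin comparisons share a group with each genotype comparison, so their results are not independent of each other.

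**Figure D2:**
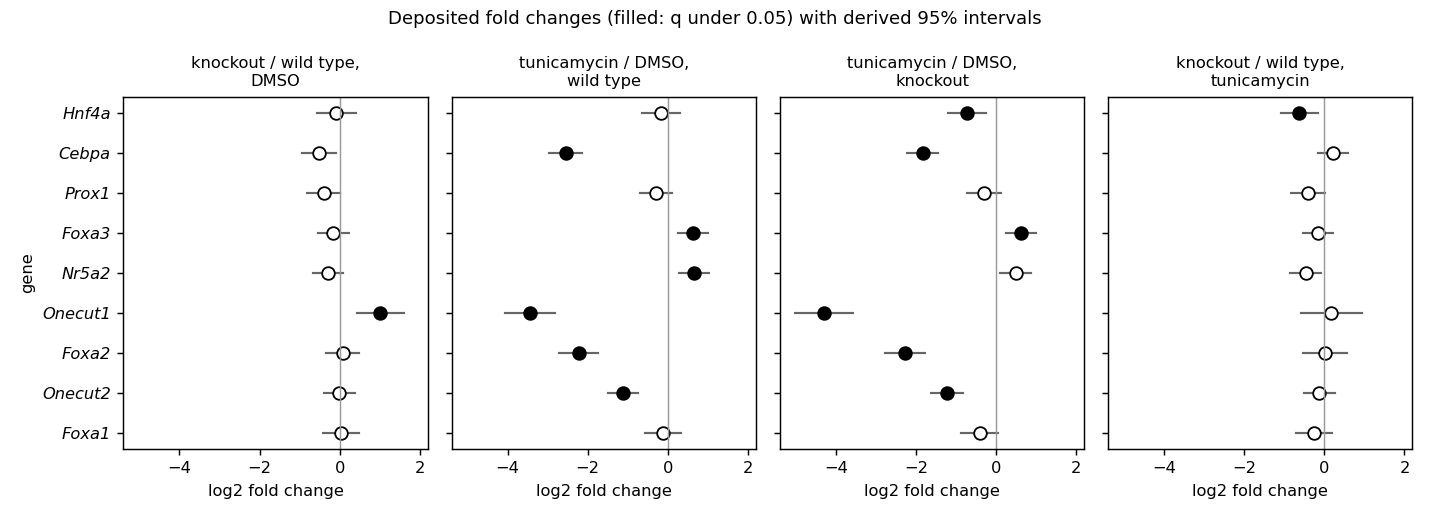
Deposited log2 fold changes (points, filled where q is under 0.05) of the 9 genes in 4 comparisons, with derived 95% intervals as bars. Onecut1, Cebpa, Foxa2 and Onecut2 lie left of 0 with tunicamycin in both genotypes, and Hnf4a is the only filled point for genotype under tunicamycin.

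Hnf4a (mm9 chromosome 2, 163318053 to 163398828) was at 210, 186, 199 and 121 FPKM in the 4 groups. The first 3 groups were close and the stressed knockout was low. The authors' deposited table gives a fall with tunicamycin in the knockout of 0.72 on the log2 scale (interval -1.20 to -0.24, q = 0.0112) and, in wild type, a log2 change of -0.17 (interval -0.64 to 0.30, q = 0.695). Under tunicamycin Hnf4a was lower in the knockout, with a log2 difference of -0.63 (interval -1.09 to -0.16, q = 0.0339 in the authors' deposited table). Both groups of that comparison were on lane 4, whereas the fall within the knockout uses the group on lane 5. The stressed knockout is also the group with the adrenal, muscle and fat markers (1289, 324 and 248 FPKM), and their part in its low Hnf4a was not tested. The difference between the tunicamycin responses, knockout minus wild type, was -0.55 (interval -1.22 to 0.12). It did not pass the test of the difference, a normal approximation built on the authors' deposited test statistics (p = 0.107, adjusted p = 1.00), so a fall particular to the knockout is not shown. The hepatocyte marker sum was itself lower in the stressed knockout than in stressed wild type, by 0.29 on the log2 scale. None of the 7 hepatocyte markers tested was called in that comparison, and the sum has no error of its own. Taken relative to that sum, Hnf4a differed by -0.33 between stressed genotypes and by -0.08 between knockout groups. The genotype call was also lost with q-values computed over that comparison alone (q = 0.150).

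Of the FOXA genes, Foxa2 fell and Foxa3 rose with tunicamycin, and Foxa1 was not called. Foxa2 (mm9 chromosome 2, 147868606 to 147872821) was at 17.4, 3.72, 18.3 and 3.75 FPKM in the 4 groups. Both stressed groups were low and nearly equal. It fell by 2.22 on the log2 scale in wild type (interval -2.71 to -1.74) and by 2.29 in the knockout (interval -2.78 to -1.79), with q = 0.000396 for each in the authors' deposited table, which is the smallest q it holds. Foxa3 (mm9 chromosome 7, 19597673 to 19608905), the most abundant FOXA transcript in every group, was at 28.9, 44.7, 25.9 and 39.8 FPKM, higher in both stressed groups. The authors' deposited table gives Foxa3 a rise of 0.63 on the log2 scale in wild-type mice (q = 0.00578) and of 0.62 in knockout mice (q = 0.00702). Foxa1 (mm9 chromosome 12, 58638630 to 58750468) was at 7.10, 6.49, 7.25 and 5.45 FPKM, and none of its 4 comparisons was called. Its largest log2 change was -0.41 with tunicamycin in the knockout (interval -0.87 to 0.04, q = 0.206 in the authors' deposited table).

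The summed level of the 3 FOXA transcripts was 53.4, 54.9, 51.4 and 49.0 FPKM in the 4 groups, while its makeup shifted with tunicamycin. Foxa3 made up 54.2% of the sum in wild type with DMSO and 81.4% with tunicamycin, and 50.4% and 81.2% in the knockout. Foxa2 went from 32.5% to 6.77% in wild type and from 35.5% to 7.65% in the knockout. Relative to the hepatocyte marker sum the FOXA sum was not level: it came to 0.255%, 0.420%, 0.310% and 0.459% of it in the 4 groups. These shares and sums have no error of their own, because the table holds 1 value per group. FOXA genotype differences were small: the log2 differences under DMSO were 0.07 for Foxa2 and -0.16 for Foxa3, and under tunicamycin 0.01 and -0.17, none of them called in the authors' deposited table.

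**Figure D3:**
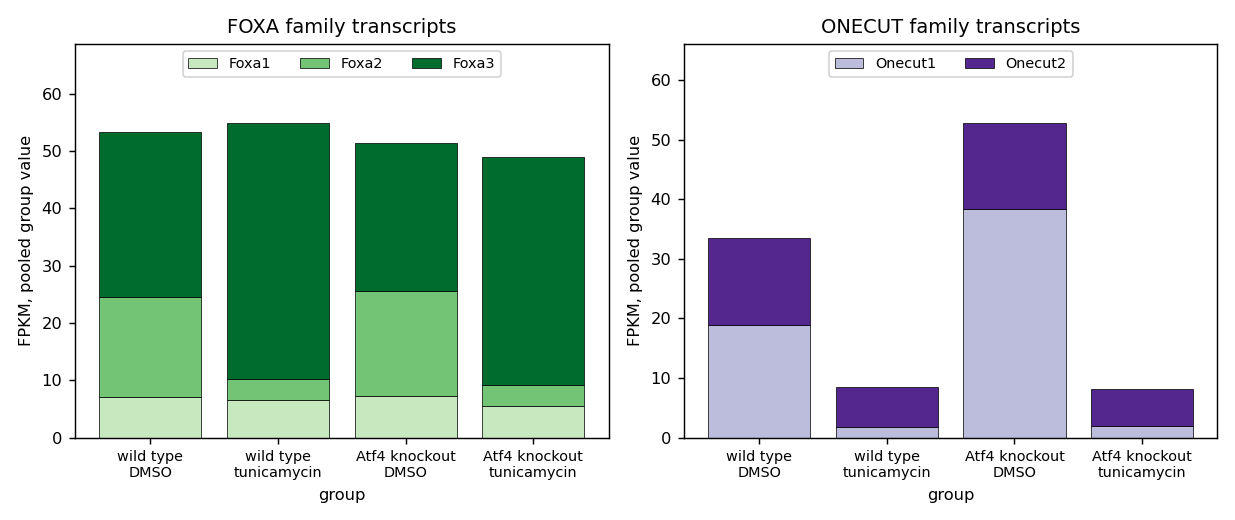
Stacked pooled FPKM of the FOXA genes (left) and the ONECUT genes (right) in the 4 groups, with 1 bar per group. The FOXA sum stays between 49.0 and 54.9 FPKM while the part of Foxa3 grows and that of Foxa2 shrinks with tunicamycin, and the ONECUT sum drops from 33.5 to 8.47 FPKM in wild type and from 52.9 to 8.15 in the knockout.

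Cebpa (mm9 chromosome 7, 35904311 to 35906951) was at 206, 35.1, 145 and 40.7 FPKM in the 4 groups. Both stressed groups were far below both resting groups. It fell by 2.56 on the log2 scale in wild type (interval -2.96 to -2.15) and by 1.84 in the knockout (interval -2.23 to -1.44), both with q = 0.000396 in the authors' deposited table. Between genotypes under DMSO the log2 difference of -0.51 had an interval of -0.93 to -0.08 with p = 0.0196, but q = 0.0718 in the authors' deposited table, so it was not called. The knockout response was smaller than the wild-type response by 0.72 on the log2 scale (interval 0.15 to 1.29). By the same test on the authors' deposited statistics it had p = 0.0127 and an adjusted p = 0.460, and did not pass. Both Cebpa responses had Cuffdiff's smallest deposited p (5e-05), below the range from which the standard errors were scaled. No gene of the 9 passed the test of the difference between responses, for which 1.01% of 14510 loci did (147 loci, but 19 without scaling the test statistic), and Cebpa alone had an unadjusted p under 0.05.

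Both ONECUT genes fell with tunicamycin, and Onecut1 had the largest change of the 9. Onecut1 (mm9 chromosome 9, 74709653 to 74744354) was at 18.97, 1.75, 38.4 and 1.97 FPKM in the 4 groups. The knockout DMSO group was the highest and the stressed groups were nearly equal. In the authors' deposited table it fell by 3.44 on the log2 scale in wild type (interval -4.08 to -2.81) and fell by 4.29 in the knockout (interval -5.01 to -3.57), both with q = 0.000396. Under DMSO Onecut1 was higher in the knockout, with a log2 difference of 1.02 (interval 0.44 to 1.60, q = 0.00749 in the authors' deposited table). That call rests on the group run on its own lane, and it was lost with q-values computed over the comparison alone (q = 0.131). The difference between responses was -0.85 (interval -1.81 to 0.11), with adjusted p = 1.00 by the test on the authors' deposited statistics.

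Onecut2 (chromosome 18) was at 14.6, 6.73, 14.5 and 6.18 FPKM in the 4 groups. It fell by 1.11 on the log2 scale in wild type and by 1.23 in the knockout, both with q = 0.000396 in the authors' deposited table. Its log2 difference between genotypes was -0.01 under DMSO (interval -0.40 to 0.38) and -0.12 under tunicamycin (interval -0.50 to 0.25). Onecut1 made up 56.6% of the summed ONECUT level in wild type with DMSO and 20.6% with tunicamycin, and 72.6% and 24.1% in the knockout, so Onecut2 was the more abundant of both in each stressed group.

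Nr5a2 (mm9 chromosome 1, 138739145 to 138857160) was at 23.0, 36.1, 18.7 and 26.2 FPKM in the 4 groups, and both stressed groups were above both resting ones. It rose by 0.65 on the log2 scale in wild type (interval 0.27 to 1.03, q = 0.00527 in the authors' deposited table). For knockout livers the log2 change was 0.49 (interval 0.10 to 0.88, q = 0.0615 in the authors' deposited table), not called. The responses differed by -0.17 (interval -0.71 to 0.38), with adjusted p = 1.00 by the test on the authors' deposited statistics. Under tunicamycin the genotypes differed by -0.46 (interval -0.85 to -0.07), with p = 0.0227 and q = 0.0809 in the authors' deposited table. Prox1 (mm9 chromosome 1, 191941809 to 192001137) was at 40.9, 33.4, 31.2 and 25.2 FPKM in the 4 groups. Its 4 log2 changes lay between -0.40 and -0.30, none of them was called, and all 4 intervals reached above 0. Prox1 is also a lymphatic endothelial gene, and the 5 lymphatic markers matched summed to 20.5, 30.9, 32.6 and 22.5 FPKM in the same order. Of these, 2 (Pdpn and Mmrn1) were under 1 FPKM in every group. The sum rests on Flt4, Lyve1 and Reln, so it is a limited measure of lymphatic content.

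Loci next to these genes were looked at after the data had been seen, within 20 kb in mm9. Beside Foxa2, 2.63 kb away, lie 17 unnamed loci in 1 interval of 103 kb, which summed to 36.6, 7.49, 42.5 and 7.08 FPKM in the 4 groups. All 17 had lower FPKM with tunicamycin in both genotypes, but 1 was called in each. That locus was at 15.9, 3.01, 16.0 and 1.88 FPKM, with log2 changes of -2.40 and -3.08 under tunicamycin in the authors' deposited table. Beside Onecut1, Gm16551 (1.79 kb away) was at 8.20, 1.46, 9.88 and 1.36 FPKM and fell, with log2 changes of -2.49 and -2.86 in the authors' deposited table. Gm16551 did not share the Onecut1 call under DMSO, where its log2 difference was 0.27 (q = 0.554). An unnamed locus 6.49 kb from Cebpa was at 3.55, 0.502, 3.18 and 0.606 FPKM and fell, with log2 changes of -2.82 and -2.39 in the authors' deposited table. Hnf4aos, which shares the assembly interval of Hnf4a, was at 5.71, 1.34, 4.66 and 0.680 FPKM. Its log2 changes of -2.09 and -2.78 with tunicamycin were not called (q = 0.167 and 0.0956 in the authors' deposited table). Not every neighbour moved with its gene: beside Foxa3, which rose, Irf2bp1 (0.537 kb away) fell in wild type (log2 change -0.74, q = 0.0105 in the authors' deposited table), and Sympk (0.820 kb away) was not called. Onecut2 and Nr5a2 had no other locus within 20 kb. The sources used here do not say whether counting used strand, so reads of overlapping genes cannot be told apart.

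**Figure D4:**
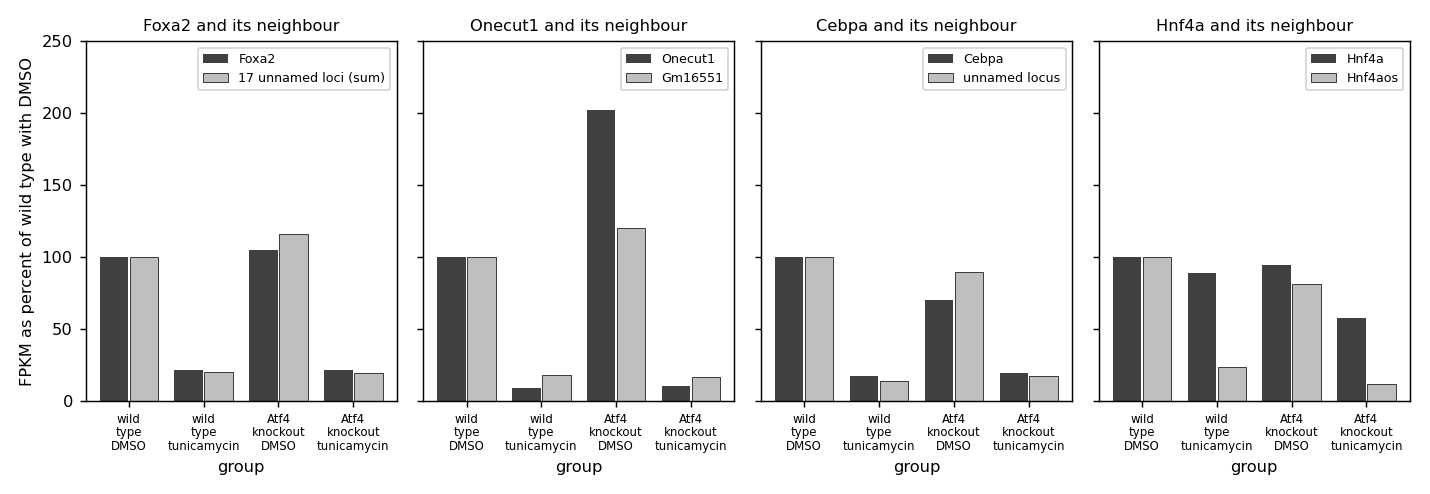
Pooled FPKM of 4 genes (dark bars) and of neighbouring loci (light bars) as percent of the value in wild type with DMSO, in the 4 groups. The light bars drop with tunicamycin beside Foxa2, Onecut1 and Cebpa as the dark bars do, and Hnf4aos drops further than Hnf4a.

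Other liver-enriched transcription factors were described from a list of 23 genes, 22 of them tested. With tunicamycin 3 rose and 10 fell in wild type, and the same numbers did so in the knockout, with median log2 changes of -0.46 and -0.50 in the authors' deposited table. Over all tested loci 37.1% were called in wild type and 33.0% in the knockout. The largest log2 changes, wild type first and knockout second, were falls of Nr1i3, the xenobiotic receptor CAR (-3.54 and -3.23), Nr0b2, the corepressor SHP (-2.07 and -2.86), and Ppara, the fatty acid receptor (-2.07 and -2.14), in the authors' deposited table. Under DMSO none of the 22 was called between genotypes. Among those called between genotypes under tunicamycin, Gata6 was higher (0.99) and Nr0b2 lower (-0.89) in the knockout, on the log2 scale in the authors' deposited table. Gata6 was at 4.87, 4.43, 3.96 and 8.80 FPKM, highest in the group with the markers of other tissues, whose part in it was not tested. Of 12 coregulators, 1 rose and 3 fell in wild type and 2 fell in the knockout, beside the same 37.1% and 33.0% of all loci. The largest change was in Ppargc1a, a coactivator of HNF4A, at 3.15, 0.307, 4.56 and 0.490 FPKM, which fell, with log2 changes under tunicamycin of -3.36 and -3.22 in the authors' deposited table. Ppargc1a was also called higher in the resting knockout (0.53, q = 0.0468), in the group on lane 5.

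Genes that these factors are known to activate were taken from lists of 20 secreted proteins and 22 enzymes. Of 18 secreted protein genes tested, 9 fell and none rose with tunicamycin in each genotype, with median log2 changes of -0.93 and -0.84 in the authors' deposited table. Apoc3, an apolipoprotein, Hp (haptoglobin) and F7 (coagulation factor VII) fell in wild type, with log2 changes of -1.75, -1.75 and -1.72 in the authors' deposited table. No secreted protein gene was called between genotypes. Of the 22 enzyme and related genes, 2 rose and 9 fell in wild type and 2 rose and 12 fell in the knockout with tunicamycin. Over all tested loci 37.1% were called with tunicamycin in wild type and 33.0% in the knockout. Pck1, a key enzyme of gluconeogenesis, fell in both genotypes (log2 changes of -3.63 and -3.40 in the authors' deposited table), as did Cyp7a1, the rate-limiting enzyme of bile acid synthesis (-2.93 and -3.34). Igfbp1, a secreted binding protein of insulin-like growth factors, rose (4.25 and 3.51 in the authors' deposited table). Between stressed genotypes 1 was higher and 6 were lower in the knockout, beside 5.92% of all tested loci called. Scarb1, the HDL receptor, was higher (log2 difference 1.11 in the authors' deposited table), and Igfbp1 (-1.04) and the bile acid enzyme Cyp8b1 (-0.89) were among the 6 lower. Scarb1 and the adrenal markers were both high in the knockout tunicamycin group, and the part of adrenal RNA in that value was not tested. Of 10 fetal and progenitor genes, 7 were tested for tunicamycin in wild type, where 1 rose and 1 fell. In the knockout 9 were tested, of which 3 rose and none fell, again beside 37.1% and 33.0% of all loci called. Igf2bp3, a fetal RNA-binding protein, rose in both genotypes (log2 changes of 3.51 and 3.25 in the authors' deposited table, from 0.215 and 0.204 FPKM). Gpc3, an oncofetal glypican, and H19 rose in the knockout (1.69 and 5.34 in the authors' deposited table). H19, a fetal transcript, was at 13.0 FPKM in the stressed knockout and at 0.319 to 0.452 in the other groups. Gpc3 was at 1.91 FPKM in the stressed knockout and at 0.592 to 0.704 in the other groups. H19 and Gpc3 too stood beside the high markers of other tissues, whose part in them was not tested.

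The loci whose pattern over the 4 groups was most like 3 of the genes were taken from 8200 loci. Each carried a single gene name and reached at least 5 FPKM in some group, so unnamed and merged loci were left out. Likeness was measured by the distance of log2(FPKM + 1) differences from wild type with DMSO over 3 groups. Nearest to Hnf4a were Mtus1 (distance 0.08), Cep85l (0.12) and Slc4a4 (0.12). Mtus1 was at 41.8, 37.4, 39.7 and 25.0 FPKM. Nearest to Cebpa were Hykk (0.14), Oaf (0.14) and Apoa5 (0.15), the last at 841, 153, 579 and 154 FPKM. Onecut1 had no such close neighbour, since its nearest were Slc22a30 (0.68), Gsta3 (0.72) and A1bg (0.74). By the same distance, the closest pair within the 9 genes was Foxa3 and Nr5a2, at a distance of 0.29.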

How the data were processed

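Poly(A) RNA was measured in 12 mouse liver libraries, 3 in each of 4 groups, with ERCC spike-in RNA added per the labels' protocols. The submitters' processing notes name bcl2fastq, TopHat2 2.0.4, Cufflinks, Cuffdiff and the build mm9. The sources used here do not give the annotation, the filters, the counting strand or how libraries were normalized. The authors' deposited table gives 1 pooled FPKM per locus and group, per the file headers. For 6 comparisons the authors also deposited log2 fold changes, test statistics (a score without a fixed range), p-values and q-values. Cells of the deposited log2 column that hold text were left out of fits. Values per library were not used here, so the depth of each library is unknown and no SD is given.

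Groups were taken from the titles and treatment labels. A locus was called at a deposited q under 0.05 with test status OK, in 4 comparisons; both crossed comparisons were left out. The deposited q equalled a Benjamini-Hochberg adjustment over 90828 tests within 5.29e-07. To get a standard error, the log2 fold change was divided by the test statistic times a scale (1.73 to 1.74) set from deposited p-values between 0.001 and 0.5. The 95% intervals use it, as does the two-sided normal test of the difference between tunicamycin responses, adjusted over 14510 loci. The scaling and the test of the difference were run on simulated data. A first criterion for the share of changed loci recovered was not met and was then narrowed to large changes, which were recovered. Smaller differences can therefore be missed, and some unchanged loci were called. The simulated statistics had the normal form that the test assumes, so the run cannot show whether Cuffdiff's statistics have it. Intervals for single comparisons, the neighbouring loci, the ratio to hepatocyte markers and the promoters printed were chosen after the data were seen. The 9 genes and all lists were chosen with earlier results of these data known. Every one of the 9 was named at every comparison, and from a list at most the 3 called genes with the largest change and at least 1 FPKM; Nr5a1 and the neighbouring loci were named after their values were seen. One gene that the rule for lists names is not reported here. Cebpa, Onecut1 and Hnf4a alone were compared with other loci for likeness. Alternatives were other adjustments and thresholds, filters at 1 FPKM, pseudocounts of 0.1 and 1, and other scalings. Promoters are RefSeq sequences of GRCm38.p6, and no coordinate was converted between builds. Figures were drawn with matplotlib 3.10.9, and values computed in Python 3.11.15 with scipy 1.17.1, pandas 2.3.3 and numpy 2.4.6.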

Additional observations from a re-analysis of the deposited data

How the results depend on the processing

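The count of called genes among the 9 stayed within 1.5 times under each alternative for both tunicamycin comparisons (4 to 6 in wild type, 4 to 7 in the knockout). Under DMSO the 1 genotype call, Onecut1, became 0 with q-values over that comparison alone, and 2 genes passed at an unadjusted p under 0.05. Under tunicamycin the 1 genotype call, Hnf4a, became 0 with q-values over that comparison alone, 0 at q under 0.01 and 0 when a 2-fold change was also asked for, and 2 genes passed at an unadjusted p under 0.05. For the difference between responses, 1 gene, Cebpa, passed at an unadjusted p under 0.05, where the count by the adjusted p was 0. Over all loci that test called 147, but 19 without scaling the test statistic. Hnf4a lost its tunicamycin call in the knockout at q under 0.01, and Nr5a2 gained one with q-values over that comparison alone (q = 0.0470). Setting the upper quartile equal moved all log2 changes by 0.10 to 0.15 in size and reversed none of the called ones. With log2(FPKM + 1), 4 of 36 log2 changes, those of Foxa2 and Onecut1 with tunicamycin, moved by more than their standard error. Relative to the summed hepatocyte markers, an alternative added after the data were seen, 35 of 36 did. The causes were not tested. Leaving out libraries could not be run because the table holds 1 value per group. No paired analysis was possible because the table holds no values per library and the labels pair none.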
